A study of Capra hircus with 9 samples.

Results

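The genes described here encode enzymes of cholesterol synthesis and the transcription factor that switches them on. They were chosen by symbol from a list of 7 (HMGCS1, SQLE, IDI1, FDFT1, FDPS, LSS and SREBF2), and 6 of them were found among the 23499 genes of the deposited table, all 6 of which passed the filter on low values. IDI1 was not analysed here. Mammary gland tissue was taken at slaughter from 9 healthy Laoshan dairy goats of a mean age of 4 years at the third parity, all raised on 1 farm, and 1 RNA-seq library was made from each goat. Of these, 3 goats were in late lactation (LL, 240 days postpartum), 3 in the dry period (DP, 300 days postpartum) and 3 in late gestation (LG, 140 days after mating). The goats carried no transgene or drug treatment in the labels, and the stages differ in everything that changes between lactation, drying off and late pregnancy. Since each library is a different goat, the tests measure the spread between goats.

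Mammalian cells build cholesterol from acetyl units through the mevalonate pathway. HMGCS1 makes HMG-CoA, FDPS joins the later isoprene units into farnesyl diphosphate, FDFT1 (squalene synthase) condenses farnesyl diphosphate into squalene, SQLE oxidises squalene, and LSS closes the oxidised chain into lanosterol, the first sterol. SREBF2 encodes SREBP2, a membrane-bound transcription factor that is cut and sent to the nucleus when sterols are scarce and then activates the genes of the pathway. In the lactating gland the pathway is known as one source of the cholesterol in the membrane around milk fat globules, and blood lipoproteins are another.

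The values are normalised read counts per length of transcript and of library size, taken here as FPKM, although the table itself names no unit, so they can be set side by side between genes. In the deposited values the median of all genes tested was 1.09 higher in DP than in LL on the log2 scale, and 0.93 higher in LG than in LL. Each library was therefore divided by a scaling factor, the median of its genes' ratios to their geometric means over the 9 libraries. LL libraries had factors of 0.498 to 0.605, LG libraries of 1.198 to 1.31 and DP libraries of 1.44 to 1.53. Fold changes are on the scale of log2(scaled FPKM + 1), which understates the change of low genes such as LSS. A gene was called changed where limma's adjusted p over the 14701 genes tested was below 0.05 and the log2 fold change was at least 1 in size. The table holds no read counts, so the counting error behind each value is unknown. The reference markers of luminal epithelium (KRT8, KRT18, KRT19, EPCAM and CDH1) were above 0 in all libraries, and 0 of the 5 were called in any comparison.

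The first question was how the pathway differed between the milking gland and the dry gland. In DP, all 5 enzymes were called lower than in LL, by log2 fold changes of -1.14 for FDFT1, -1.64 for LSS, -1.85 for HMGCS1, -2.35 for SQLE and -2.42 for FDPS. SREBF2 was also lower (-0.75, limma adjusted p = 0.000857), but by less than the fold that makes a call, and it did not pass when scaled by luminal markers (limma adjusted p = 0.0708). These 5 of 6 genes compare with 8.79% of all genes tested that were called lower in DP, and 13.8% that were called higher. The scaled values of DP and LL did not overlap for any of the 6 genes, which held in the lower direction for 33.4% of the genes tested. The median of the 6 genes was -1.75, and that of all genes tested was 0.004. In tissue RNA, fewer cells of a type cannot be told apart from less RNA per cell. Milk secretion markers moved in the same direction: the scaled values of CSN2, LALBA, BTN1A1 and XDH summed to 166300 to 268400 in LL libraries and 40.1 to 56.9 in DP libraries, and 4 of 4 were called lower in DP. Leukocyte markers summed to 68 to 101.9 in DP against 27.8 to 36.6 in LL, with 3 of 5 called higher, and fibroblast markers to 428.6 to 1744 against 175.9 to 270.2, with 4 of 5 called higher. Their part in the lower enzyme values was not tested. The size of the DP difference also rests on the scaling. In the values as deposited, SQLE (-1.05) and FDPS (-1.09) were still called lower in DP. HMGCS1 and LSS (-0.53 and -0.65) were not called, although LSS passed the adjusted p alone (limma adjusted p = 0.0101). FDFT1 turned to 0.15, and SREBF2 turned to 0.48, higher in DP at a limma adjusted p of 0.011. The median of all genes tested stood at 1.09. All 6 genes lay below that median.

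**Figure D1:**
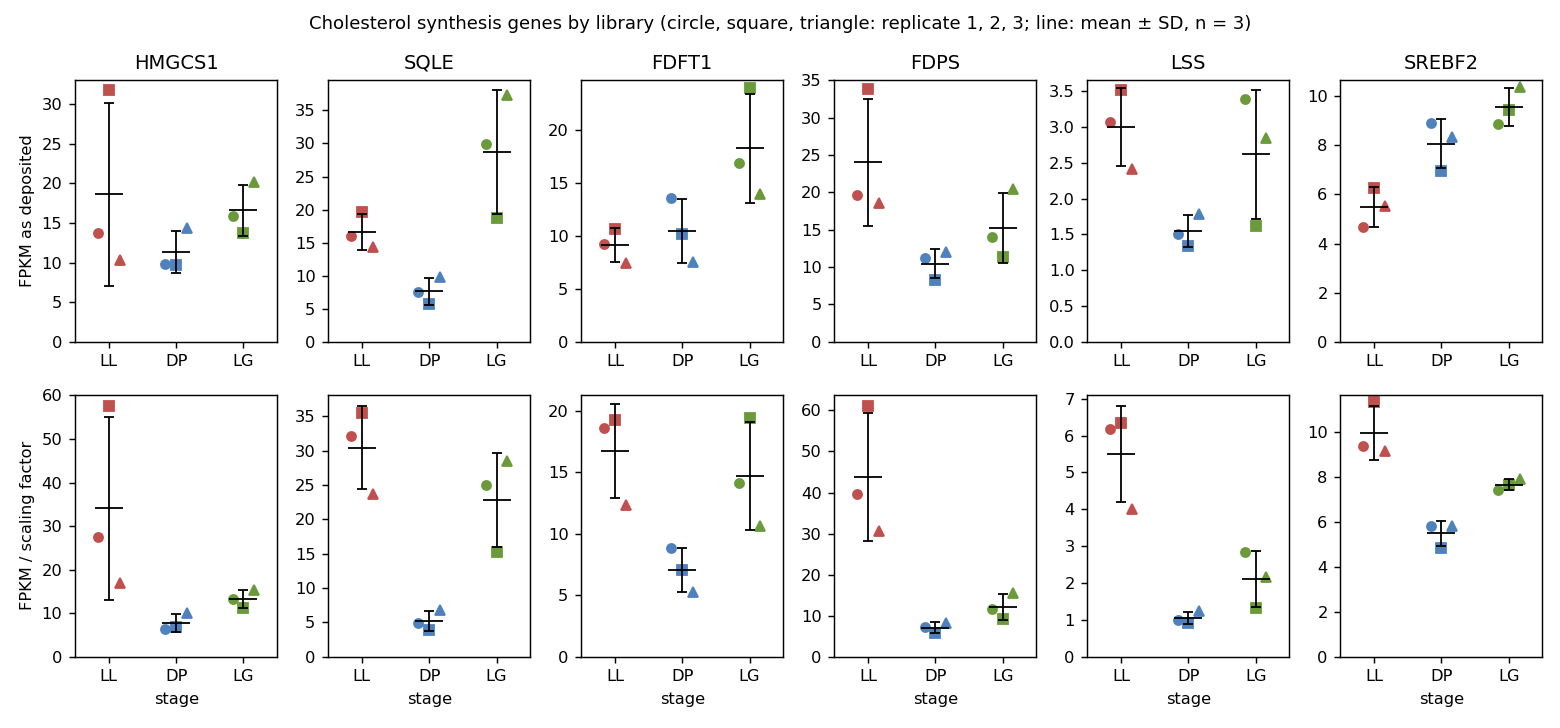
Each column of panels plots 1 gene, with the stage on the horizontal axis. The upper row shows FPKM as deposited and the lower row FPKM divided by the scaling factor. Points are single goats and bars are means with SD. In the lower row, for all 6 genes the 3 DP goats lie below the 3 LL goats and below the 3 LG goats. The widest LL spread in that row is that of HMGCS1, from 17.0 to 57.6.

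The second question was how far the gland of late pregnancy stood from the milking gland. Of the 6 genes, 3 were called lower in LG than in LL (HMGCS1, FDPS and LSS), against 6.61% of all genes tested that were called lower and 10.7% that were called higher. With the adjusted p alone, 4 of 6 were lower, SREBF2 being the fourth, against 24.6% of the genes tested. SREBF2 passed at 0.0486 and kept that pass in only 4 of 20 alternatives, with a limma adjusted p of 0.055 to 0.171 over the 9 fits that each left out a goat. The squalene enzymes FDFT1 (-0.19, 95% interval -0.76 to 0.38) and SQLE (-0.42, -1.01 to 0.16) were not called, and their LG and LL values overlapped. The other 4 of 6 did not overlap, and were lower in LG, as were 30.2% of the genes tested. These intervals still allow a fall in LG of over a log2 unit for SQLE. The median of the 6 genes was -0.75. Of the 3 calls, that of FDPS stood in every fit without a goat, while those of HMGCS1 and LSS did not (values beside each gene). The number of genes called was 1 without LL replicate 1, without LL replicate 2 or without LG replicate 2. Milk secretion markers summed to 4396 to 5741 in LG, below every LL library. Fibroblast markers summed to 424.8 to 744.6 in LG, above every LL library, with 2 of 5 called higher. Within that sum COL1A1 and COL3A1 were higher in every LG library than in any LL library, while DCN and LUM overlapped. PDGFRA went the other way, at 3.55 to 4.68 in LG against 6.29 to 10.36 in LL. Leukocyte markers summed to 23.5 to 32.8 in LG, overlapping the LL range, with 2 of 5 called lower. Within that sum CD3E went the other way, at 3.46 to 5.93 in LG against 2.10 to 2.69 in LL. PTPRC and CSF1R overlapped between the stages. Of the myoepithelial markers, 1 of 5 was called higher. The part of these markers in the differences was not tested either.

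The third question was what separated late gestation from the dry period. SQLE was the 1 gene of the 6 called higher in LG than in DP, by 1.92 on the log2 scale (limma adjusted p = 0.000578), and 6.37% of all genes tested were called higher and 6.88% lower. FDFT1 (0.95) and SREBF2 (0.42) passed the adjusted p alone, making 3 of 6 against 18.4% of the genes tested. FDFT1 lost that pass without DP replicate 3 (limma adjusted p = 0.0522) or LG replicate 2 (0.0578). SREBF2 lost it in 8 of 20 alternatives, among them the fits without DP replicate 2 (0.106), LG replicate 1 (0.0543), LG replicate 2 (0.0631) and LG replicate 3 (0.0642). HMGCS1 (0.72), FDPS (0.68) and LSS (0.57) did not pass. The 3 LG goats lay above the 3 DP goats for all 6 genes, a pattern found in the higher direction for 25.1% of the genes tested. Without DP replicate 1 or without LG replicate 3, FDFT1 passed the fold as well (1.11 and 1.15), and 2 genes were called. The milk secretion markers were called higher in LG than in DP in 4 of 4 cases and 1 of 5 myoepithelial markers was called higher, while 4 of 5 leukocyte markers and 2 of 5 fibroblast markers were called lower. The part of these markers was not tested. The 3 comparisons share libraries by pairs, so their values are set side by side for each gene and are not independent of one another.

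HMGCS1 (gene ID 102176561, chromosome 20, 31413652 to 31436393, plus strand) encodes the cytosolic HMG-CoA synthase at the head of the pathway. Coordinates here and for the other genes are those of the deposited table, and match the RefSeq annotation of the goat assembly ARS1.2. Its deposited FPKM was 13.71, 31.86 and 10.31 for LL replicates 1 to 3, 9.89, 9.74 and 14.44 for the DP goats and 15.87, 13.76 and 20.17 for the LG goats, here and below in the order of the replicates. Scaled, the LL goats had 27.5, 57.6 and 17.0, the DP goats 6.47, 6.76 and 10.03, and the LG goats 13.3, 11.2 and 15.4. LL replicate 2 was far above the other LL goats, and the lowest LL goat still stood above every DP and LG goat after scaling. HMGCS1 was lower in DP than in LL by a log2 fold change of -1.85 (95% interval -2.67 to -1.03, limma adjusted p = 0.00226). Against LL it was lower in LG by -1.14 (-1.96 to -0.32, limma adjusted p = 0.0264). The LG call was lost without LL replicate 2 (-0.68), LL replicate 1 (-1.20), LG replicate 1 (-1.14) or LG replicate 2 (-1.03). In these fits the limma adjusted p rose to between 0.0511 and 0.0811. The LG value was also under the fold threshold with quantile normalization (-0.946), with luminal markers (-0.979) and without scaling (-0.02). The same held with the sum without the 1% most abundant genes as the scaling (-0.951). LG and DP differed by 0.72 (-0.10 to 1.53, limma adjusted p = 0.157), which did not pass the test although the goats of the 2 stages did not overlap.

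FDPS (gene ID 102186540, chromosome 3, 104804880 to 104814193, plus strand) makes farnesyl diphosphate, which feeds sterols and also the prenyl groups attached to proteins. Its FPKM was 19.7, 33.78 and 18.53 for the LL goats, 11.16, 8.22 and 11.98 for the DP goats and 13.96, 11.29 and 20.41 for the LG goats. After scaling, LL had a mean of 43.7 ± 15.7, DP of 7.11 ± 1.32 and LG of 12.1 ± 3.21 (SD, n = 3 goats each). Every LL goat was above every other goat on the scaled values, whereas in the deposited values LG replicate 3 was above LL replicates 1 and 3. FDPS had the lowest fold change of the 6 genes in both comparisons with LL, -2.42 in DP (-3.02 to -1.82, limma adjusted p = 7.09e-05) and -1.74 in LG (-2.34 to -1.15, limma adjusted p = 0.000668). Its LG value exceeded DP by 0.68 (0.08 to 1.27), with a limma adjusted p of 0.075.

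FDFT1 (gene ID 102173564, chromosome 8, 7451908 to 7479982, minus strand) commits farnesyl diphosphate to sterols by making squalene. Its FPKM was 9.25, 10.66 and 7.49 for the LL goats, 13.54, 10.22 and 7.53 for the DP goats and 16.91, 23.92 and 13.96 for the LG goats. As deposited, LL and DP overlapped and all 3 LG goats were the highest. Scaling brought LL to a mean of 16.7 ± 3.80, DP to 7.06 ± 1.81 and LG to 14.7 ± 4.41 (SD, n = 3 goats each), so that LL and LG overlapped and all DP goats lay below both. The DP value was -1.14 against LL (-1.71 to -0.57, limma adjusted p = 0.00433), the least of the 5 calls. It fell short of the fold threshold without DP replicate 3 (-0.97) and under the 3 other ways of scaling (quantile normalization -0.965, the sum without the 1% most abundant genes -0.82, luminal markers -0.9955). LG exceeded DP by 0.95 (0.38 to 1.52, limma adjusted p = 0.0173), just under the fold threshold.

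SQLE (gene ID 102187506, chromosome 14, 66867014 to 66889586, plus strand) encodes squalene epoxidase, known as a rate-limiting step of the sterol branch. Its FPKM was 16.02, 19.6 and 14.33 for the LL goats, 7.48, 5.68 and 9.74 for the DP goats and 29.88, 18.72 and 37.34 for the LG goats. The DP goats were the lowest on either scale. Scaled, the LL goats had 32.2, 35.4 and 23.7, the DP goats 4.895, 3.94 and 6.77, and the LG goats 24.95, 15.2 and 28.4. LL and LG overlapped, and each of them was separate from DP. SQLE was lower in DP than in LL by -2.35 (-2.93 to -1.76, limma adjusted p = 7.35e-05) and higher in LG than in DP by 1.92 (1.34 to 2.51). Both calls stood under all 20 alternatives tried, as did the DP call of FDPS.

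LSS (gene ID 102175810, chromosome 1, 145851416 to 145883591, minus strand) encodes lanosterol synthase and had the lowest FPKM of the 6 genes in every stage. Its FPKM was 3.07, 3.51 and 2.42 for the LL goats, 1.51, 1.34 and 1.79 for the DP goats and 3.39, 1.62 and 2.84 for the LG goats. The DP goats were close together, while LG replicate 2 was near the DP level and the other LG goats near the LL level. Scaling gave LL a mean of 5.50 ± 1.31, DP of 1.05 ± 0.167 and LG of 2.10 ± 0.761 (SD, n = 3 goats each), with no overlap between any pair of stages. LSS was lower than in LL by -1.64 in DP (-2.10 to -1.18, limma adjusted p = 0.000151) and by -1.08 in LG (-1.54 to -0.62, limma adjusted p = 0.00225). The LG value was under the fold threshold without LL replicate 1 (-0.9962), LL replicate 2 (-0.98) or LG replicate 2 (-0.88). The same held with luminal markers (-0.95) or the sum without the 1% most abundant genes (-0.92) as the scaling, and without scaling (-0.17). LG against DP was 0.57 (0.11 to 1.03, limma adjusted p = 0.0573).

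SREBF2 (gene ID 102189018, chromosome 5, 111788195 to 111853028, plus strand) encodes the precursor of SREBP2, whose activity is set mainly by its processing, which RNA does not measure. Its FPKM was 4.66, 6.27 and 5.53 for the LL goats, 8.9, 6.95 and 8.35 for the DP goats and 8.86, 9.44 and 10.38 for the LG goats. As deposited, all LL goats were the lowest. Scaled, the order of LL and DP turned round, to 9.36, 11.3 and 9.13 for the LL goats, 5.82, 4.82 and 5.80 for the DP goats and 7.40, 7.65 and 7.90 for the LG goats, with no overlap between any pair of stages. The goats of a stage differed little, with SDs of 1.21, 0.572 and 0.251 in LL, DP and LG. The log2 fold changes were -0.75 in DP against LL (-1.03 to -0.47), -0.33 in LG against LL (-0.61 to -0.05, limma adjusted p = 0.0486) and 0.42 in LG against DP (0.14 to 0.70, limma adjusted p = 0.0272). None of the 3 reached the fold threshold.

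Ratios of 2 genes within a library do not depend on the scaling factor, so they show whether the enzymes changed by unequal amounts. SQLE was high in LG beside FDPS and LSS, but not beside FDFT1. The FPKM of SQLE was 0.813, 0.580 and 0.773 times that of FDPS for the LL goats, 0.670, 0.691 and 0.813 for the DP goats and 2.14, 1.66 and 1.83 for the LG goats. The mean ratio of LL was 0.722 ± 0.125, that of DP 0.725 ± 0.0771 and that of LG 1.88 ± 0.245 (SD, n = 3 goats each). LL and DP overlapped, and every LG goat was above both. The exact two-sided permutation p was 0.1 for LG against either stage, the smallest that 3 goats against 3 can give, so no ratio could reach 0.05. SQLE to LSS behaved alike, at 5.22, 5.58 and 5.92 for the LL goats, 4.95, 4.24 and 5.44 for the DP goats and 8.81, 11.6 and 13.2 for the LG goats. Again every LG goat was above the other 6 goats (exact permutation p = 0.1 against each stage), and LL and DP overlapped (exact permutation p = 0.2). SQLE to FDFT1 was 1.767, 0.783 and 2.675 for the LG goats, which overlapped both the LL goats at 1.732, 1.839 and 1.913 (exact permutation p = 0.8) and the DP goats at 0.552, 0.556 and 1.293 (exact permutation p = 0.2). The DP goats were below all LL goats in this ratio (exact permutation p = 0.1).

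The ratio of FDFT1 to FDPS, neighbouring steps, separated LL from the other stages. It was 0.470, 0.316 and 0.404 for the LL goats, 1.21, 1.24 and 0.629 for the DP goats and 1.21, 2.12 and 0.684 for the LG goats. All DP and LG goats were above all LL goats (exact permutation p = 0.1 each), and DP and LG overlapped (exact permutation p = 0.7). SQLE to HMGCS1 was 1.36 to 1.88 in LG, above the DP range of 0.583 to 0.756 (exact permutation p = 0.1) and overlapping the LL range of 0.615 to 1.39 (exact permutation p = 0.2). HMGCS1 to FDPS was 0.988 to 1.219 in LG, above the LL range of 0.556 to 0.943 (exact permutation p = 0.1), and in DP (0.886 to 1.205) it overlapped both. These values come from 6 ratios and 18 comparisons, none of which can pass a correction with 3 goats a stage.

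**Figure D2:**
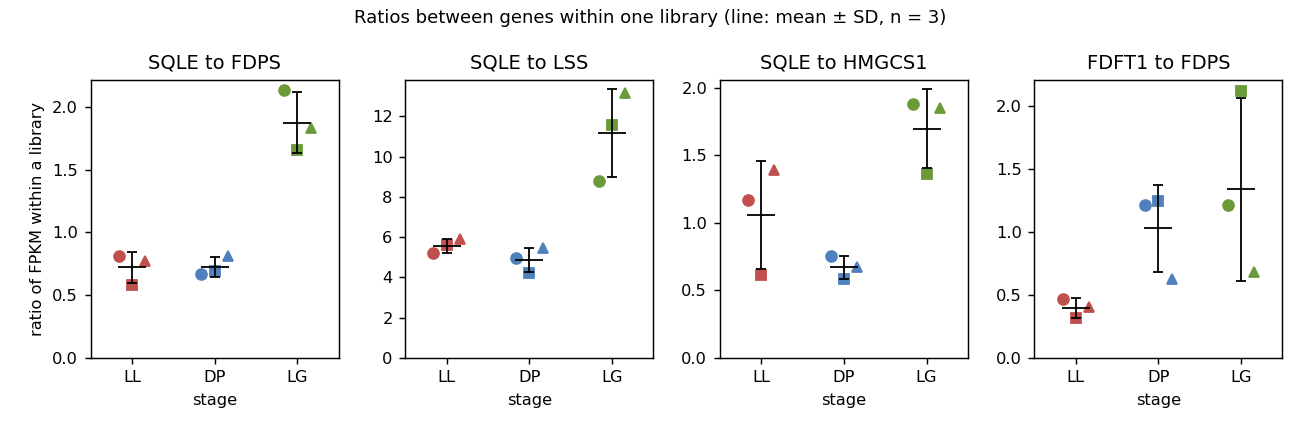
Ratios of the FPKM of 2 genes within each library, with the stage on the horizontal axis and the ratio on a linear axis. Points are single goats and bars are means with SD. SQLE to FDPS and SQLE to LSS are higher in all 3 LG goats than in the 6 others, and FDFT1 to FDPS is lower in all 3 LL goats than in the 6 others.

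The order of the genes within a stage changed with these ratios. By mean FPKM in LL, FDPS (24.0 ± 8.49) was followed by HMGCS1 (18.6 ± 11.6) and SQLE (16.7 ± 2.69). The range of FDPS overlapped that of HMGCS1, and the range of HMGCS1 that of SQLE. Within a library, FDPS was above HMGCS1 in 3 of 3 LL goats, and HMGCS1 above SQLE in 1. FDFT1 (9.13 ± 1.59), SREBF2 (5.49 ± 0.806) and LSS (3.00 ± 0.548) came next (SD, n = 3 goats each), each with no goat overlapping its neighbour. In DP, HMGCS1 (11.4 ± 2.67), FDPS (10.5 ± 1.98), FDFT1 (10.4 ± 3.01), SREBF2 (8.07 ± 1.01) and SQLE (7.63 ± 2.03) overlapped from each to the next, and SQLE was separate from LSS (1.55 ± 0.227). In LG, SQLE came first (28.6 ± 9.37), then FDFT1 (18.3 ± 5.12), HMGCS1 (16.6 ± 3.27) and FDPS (15.2 ± 4.69), all overlapping their neighbours, with SREBF2 (9.56 ± 0.767) and LSS (2.62 ± 0.906) each separate from the gene before.

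Ranks within a library are also free of the scaling factor. Among the 14701 genes tested, SQLE stood at percentile 91.6 ± 1.57 for LL, 54.1 ± 8.97 for DP and 89.3 ± 4.29 for LG (SD, n = 3 goats each). FDPS stood at 93.9 ± 1.65, 65.9 ± 5.66 and 78.2 ± 5.56, and LSS at 57.3 ± 8.56, 7.35 ± 1.84 and 27.2 ± 12.3. HMGCS1 (90.6, 68.2 and 80.8), FDFT1 (84.0, 65.4 and 82.3) and SREBF2 (74.0, 57.0 and 67.0) likewise had their lowest mean rank in DP and their highest in LL.

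Within LL the 6 genes ranked the goats alike on the scaled values. LL replicate 2 had the highest scaled value of its stage for 6 of 6 genes and LL replicate 3 the lowest for 6 of 6, as against 30.5% and 30.7% of all genes tested. Among 13 other enzymes of the pathway the counts were 11 and 11. The order depended on the scaling for SREBF2. As deposited, its lowest LL value was that of replicate 1 (4.66, against 5.53 for replicate 3). Scaled, these were 9.36 and 9.13. The order was less uniform in the other stages, where DP replicate 3 was the highest of its stage for 4 of 6 genes and LG replicate 3 for 4 of 6. With LL replicate 2 left out, DP still had 5 genes called lower than LL, and LG had 1.

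The other genes of sterol synthesis were read from a fixed list, and 13 enzymes of it were tested, while CYP51A1 was not analysed here. In DP, 9 of 13 were called lower than in LL and 0 higher, with a median of -2.36, against 8.79% of all genes tested called lower. MSMO1, a sterol demethylase, had an FPKM of 59.45, 105.85 and 50.82 for the LL goats and 13.72, 11.46 and 14.03 for the DP goats. It differed by -3.67 (limma adjusted p = 1.47e-05), and PMVK, which phosphorylates phosphomevalonate, by -2.54. ACAT2, MVK, GGPS1 and LBR were not called. In LG, 8 of 13 were called lower than in LL, against 6.61% of all genes tested. MSMO1 differed by -2.99 and PMVK by -2.24. Against DP, where 6.37% of all genes tested were called higher in LG, 2 of 13 enzymes were called higher. These were HSD17B7, a sterol ketone reductase (2.12, limma adjusted p = 0.0015), and MVD, which makes isopentenyl diphosphate (1.08, limma adjusted p = 0.0143). The MVD call was lost without DP replicate 1 (0.98), without LG replicate 3 (0.91), without scaling (0.9068) and with the sum without the 1% most abundant genes (0.96). Its call in LG against LL (-1.20) was lost without LL replicate 2 (-0.90) and without scaling (-0.08).

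Of 6 other regulators of SREBP, 2 were called lower in DP than in LL, against 8.79% of all genes tested. INSIG1, a sterol sensor that retains SREBP in the endoplasmic reticulum and is itself a target of it, differed by -3.65 (limma adjusted p = 8.84e-05). SREBF1, which encodes the SREBP of fatty acid synthesis, differed by -1.07, a call lost without LL replicate 2 (-0.97), with luminal markers (-0.93) or the sum without the 1% most abundant genes (-0.77) as the scaling, and without scaling, where it turned to 0.17. INSIG1 was also the 1 regulator called lower in LG than in LL (-2.50), against 6.61% of all genes tested. In LG against DP, 0 of 6 were called. In that last comparison 1.15 was found for INSIG1 (limma adjusted p = 0.0578), which passed under 7 of 20 alternatives. These were the fits without LL replicate 2 or LL replicate 3 (limma adjusted p = 0.0135 and 0.0143), with only the libraries of the 2 stages (0.00659), with a pseudocount of 0.1 (0.0314), with quantile normalization (0.0369), with luminal markers (0.0352) and with the replicate number as a block (0.0277). SCAP, INSIG2 and the proteases MBTPS1 and MBTPS2, which escort, hold back or cut the SREBP precursors, were not called in any comparison.

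**Figure D3:**
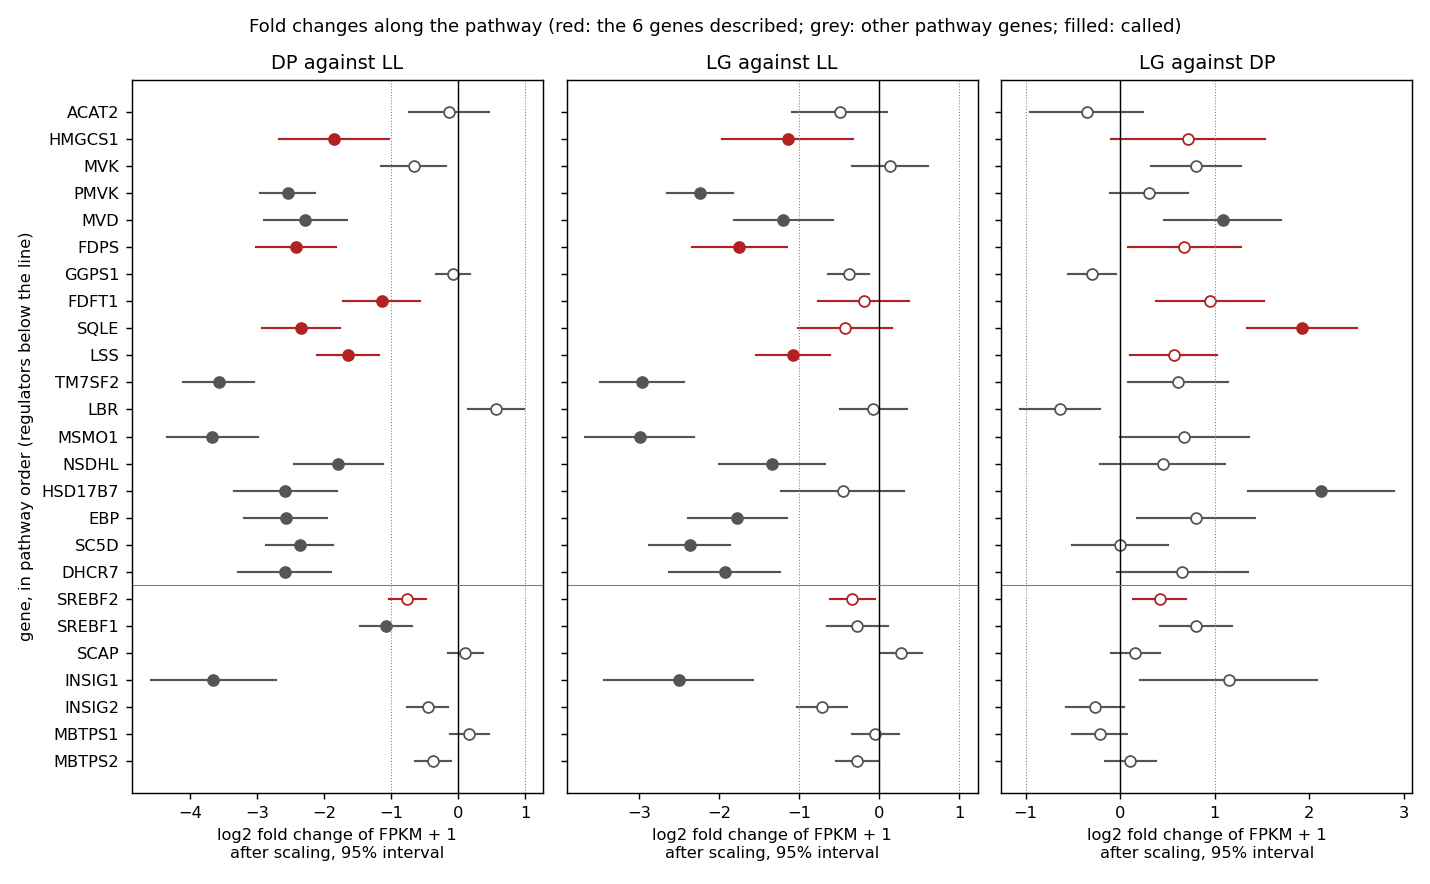
Log2 fold changes of scaled FPKM + 1 with 95% intervals for 18 enzymes in pathway order and 7 regulators, 1 panel a comparison; red marks HMGCS1, FDPS, FDFT1, SQLE, LSS and SREBF2, grey the other genes, and filled points are called. Against LL, MSMO1 has the lowest value shown in both DP (-3.67) and LG (-2.99), and in LG against DP the filled points are SQLE, HSD17B7 and MVD.

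The genes whose pattern over the 9 libraries lay nearest to the mean pattern of HMGCS1, FDPS, FDFT1, SQLE and LSS were sought among 11715 genes. The measure was the root mean square distance between centred log2 values, with a median of 0.867 over all these genes. LAMTOR2 (0.151), TMEM208 (0.159), SEC62 (0.159), KCNK6 (0.167) and NDUFA4 (0.171) were the nearest. The enzymes themselves lay farther from their own mean, LSS at 0.215, HMGCS1 at 0.259, FDPS at 0.365, SQLE at 0.428 and FDFT1 at 0.491. SREBF2, which was not part of that mean, lay at 0.492. The nearest genes were picked as the smallest distances among 11715, so their being nearer than the enzymes follows largely from that choice.

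Because the fold changes against LL depended on the scaling, they were set against other ways of scaling. In LG against LL with the values as deposited, 0 of 6 genes were called. The log2 fold changes were -0.61 for FDPS, -0.17 for LSS, -0.02 for HMGCS1, 0.71 for SQLE, 0.91 for FDFT1 and 0.71 for SREBF2. By the adjusted p alone, SQLE (limma adjusted p = 0.0302), FDFT1 (0.00617) and SREBF2 (0.00142) passed as higher in LG, and FDPS, LSS and HMGCS1 did not pass. Each of the 6 values was below the median of all genes tested, 0.93. Divided by the sum of all but the 1% most abundant genes, or by the luminal epithelial markers, 1 of 6 was called in LG against LL, and 4 of 6 in DP against LL. In LG against DP, SQLE was called under every scaling, with 1.75 in the values as deposited, where the median of all genes was -0.18.

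**Figure D4:**
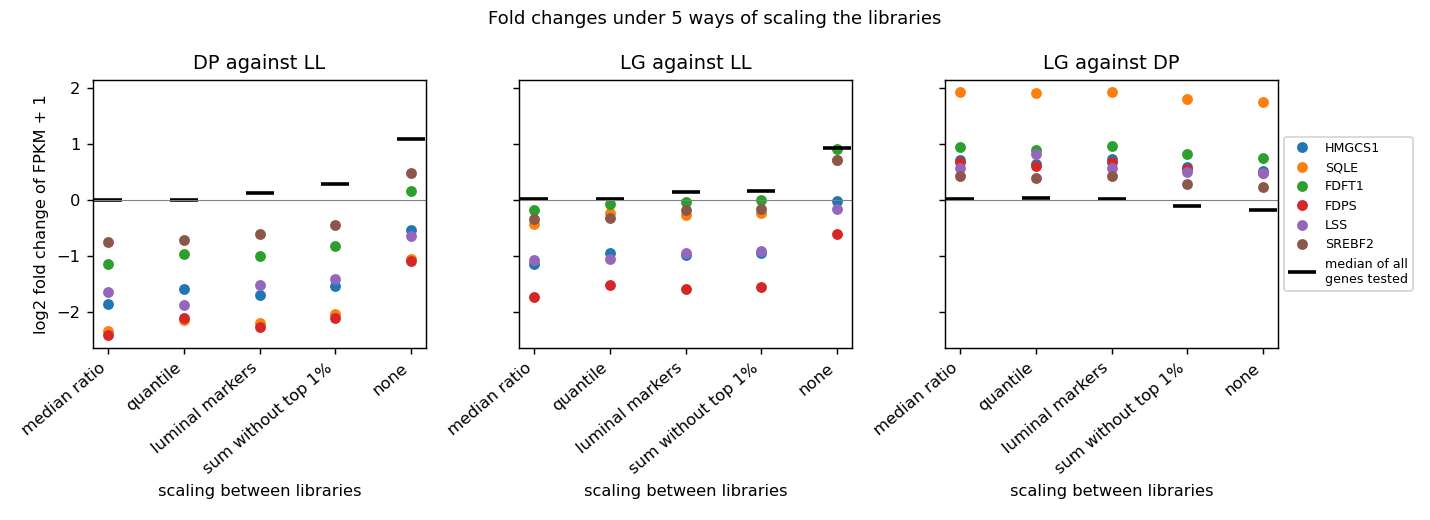
Log2 fold change of each of the 6 genes (coloured points) and the median of all genes tested (black dashes) under 5 ways of scaling between libraries, 1 panel a comparison. Without scaling the dashes move to 1.09 in DP against LL and 0.93 in LG against LL, and in these 2 panels the 6 genes move up with them but stay below.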

How the data were processed

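The authors trimmed reads with Trimmomatic, aligned them with HISAT2 and quantified genes; StringTie is named in the study's methods and HTSeq in the submitters' processing notes, so the counter is uncertain. The deposited table holds 1 value per gene and library, taken as FPKM, with no unit or build named in it. All 23465 gene IDs matched to RefSeq's ARS1.2 table had its start and end. Values were scaled as described, log2(FPKM + 1) was fitted with limma 3.58.1 in R 4.3.3 over all 9 libraries with a mean-variance trend, and p-values were adjusted by Benjamini-Hochberg over genes of at least 0.5 FPKM in at least 3 libraries. Ratios used exact permutation tests (scipy 1.17.1). The fit was tested on simulated data. Alternatives covered scaling, pseudocount, filter, variance model, call rule, libraries in the fit, a replicate block and leaving out each library.

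The genes and lists were chosen with earlier results of these data known. Named genes were every gene of the 7, genes of the fixed lists, and the 5 of nearest pattern. Genes whose values follow a neighbour's (624 of 15945 searched) were left out in 1 alternative, and none of the genes named from the lists was among them. Some genes of the pathway are not reported here. Depth is not given by FPKM.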

Additional observations from a re-analysis of the deposited data

How the results depend on the processing

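Of 1200 alternative log2 fold changes of the 6 genes and the called list genes, 1133 kept direction and call, 42 lost the call, 10 gained it and 15 changed sign. Some alternatives cannot change the fold change itself, only the adjusted p. These are the filters, the variance model, the replicate block, the fit of 2 stages only, leaving out linked genes, and leaving out a goat of the stage not compared. The count kept is therefore no measure of robustness for them. With no scaling, the sign changed in DP against LL for FDFT1 (0.15), SREBF2 (0.48) and SREBF1 (0.17), and in LG against LL for SQLE (0.71), FDFT1 (0.91), SREBF2 (0.71), HSD17B7 (0.65), SREBF1 (0.79) and MYLIP (0.82). Values near 0 changed sign for FDFT1 in LG against LL without LG replicate 3 (0.0096, with a lowest value of -0.40 leaving out goats) and in LG against DP for SC5D (luminal markers 0.0041, without DP replicate 1 0.06, without LG replicate 2 0.15, lowest -0.12) and STARD4 (0.11 and 0.10 without these goats, lowest -0.23). The cause was not tested. Genes called of the 6 numbered 5 in DP against LL (2 with no scaling, 4 to 5 leaving out goats), 3 in LG against LL (0 with no scaling, 1 by the sum without the top 1%, 1 by luminal markers, 1 to 3 leaving out goats) and 1 in LG against DP (2 with a pseudocount of 0.1, 3 by adjusted p alone, 1 to 2 leaving out goats). Of the 27 other pathway genes, 3 were called in LG against DP, 2 higher and 1 lower, against 6.37% and 6.88% of all genes tested. By adjusted p alone 9 passed, 6 higher and 3 lower, against 2699 and 2413 of the 14701 genes tested. Ranked among all genes above 0, percentiles were higher: HMGCS1 77.1 in DP and 86.2 in LG, SQLE 93.9 in LL and 67.0 in DP, FDFT1 88.4 in LL and 75.1 in DP, FDPS 95.6, 75.4 and 84.3 in LL, DP and LG, LSS 69.2, 33.1 and 47.6, and SREBF2 81.3, 69.1 and 76.2. With the replicate number as a block, 5, 3 and 1 of the 6 genes and 14, 11 and 4 of the others were called. Correlations of the 9 same-numbered pairs ran from -0.106 to 0.201, 3 of them over 0.1, and the same number gave the highest correlation in 10 of 18 cases. Among differently numbered pairs the highest correlation was 0.0722, of LL replicate 3 with LG replicate 2. Whether libraries of the same number share anything was not tested. Depth is unknown, so the counting error of low values such as those of LSS is unknown.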

Other observations

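Sterol handling genes followed the enzymes only in part. Of 8 tested, STARD4, a sterol carrier (-1.54 in DP and -1.59 in LG), and TMEM97, an endoplasmic reticulum protein of sterol handling (-1.86 and -1.17), were called lower than in LL, although TMEM97 in LG fell short of the fold without LL replicate 2 (-0.95), without LG replicate 2 (-0.98) and with the sum without the 1% most abundant genes as the scaling (-0.99). Without scaling neither gene was called in DP (-0.22 and -0.59) or LG (-0.49 and -0.08). Of all genes tested, 8.79% were called lower in DP than in LL, 13.8% were called higher, and 6.61% were called lower in LG than in LL. MYLIP, a ubiquitin ligase induced by sterols that degrades lipoprotein receptors, went the other way in DP. Its FPKM was 3.99, 4.19 and 5.88 in LL and 29.11, 29.83 and 30.46 in DP, and it was called higher in DP than in LL (1.18, limma adjusted p = 0.00037) and lower in LG than in DP (-1.39, limma adjusted p = 0.000365).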
